A study of Mus musculus with 9 samples.

Results

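The genes described here are the 7 Nkx2 and Nkx6 homeobox genes *Nkx2-1*, *Nkx2-2*, *Nkx2-3*, *Nkx2-4*, *Nkx2-9*, *Nkx6-1* and *Nkx6-2*, taken by symbol from the 51912 genes of the expression table through the GRCm38 annotation. All 7 were found, and 3 of them reached a mean normalized count of 5 (*Nkx2-2*, *Nkx6-1* and *Nkx6-2*), while the other 4 fell below it. RNA was sequenced from midbrain dissected from C57Bl/6 mouse embryos at E14.5 (embryonic day), in 9 libraries, 3 each labelled wild type, het and knock-out for *Nkx2.9* (the table's *Nkx2-9*). The tissue is midbrain in the labels of all samples and in the study's methods, whereas the title of the series calls it cortical. The allele is a knock-in of nuclear LacZ that removes the coding part of exon 1, so that het embryos have 1 and knock-out embryos 2 such alleles, and no other allele or agent is named. Each library pooled 2 midbrains, so 3 libraries per genotype measure the spread between pools and not between single embryos. The libraries are named here by genotype and by column of the table (knock-out 1 to 3, het 4 to 6, wild type 7 to 9), because the columns carry the genotype but not the replicate number of the labels.

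Nkx2 and Nkx6 genes encode homeodomain transcription factors that pattern the ventral neural tube. Sonic hedgehog, secreted by notochord and floor plate, switches on *Nkx2-2*, *Nkx2-9*, *Nkx6-1* and *Nkx6-2* in ventral progenitors, where their proteins act mainly as repressors that set the borders between progenitor domains. *Nkx2-2* is required for serotonergic neurons of the hindbrain, *Nkx6-1* and *Nkx6-2* have partly overlapping roles in ventral neurons, *Nkx2-1* patterns the ventral forebrain and hypothalamus, and *Nkx2-3* is known from gut and spleen rather than brain. The question put to the table was whether the relatives of *Nkx2-9* differ in level between the genotypes.

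The homeobox is the part by which these genes are recognised as relatives, and the values of a pair of genes can be told apart only where their sequences differ. Identity was counted over the 180 bases of the homeobox in the GENCODE transcript of GRCm38, position by position. The targeted gene and its relative *Nkx2-2* differed at 31 of 180 bases. *Nkx2-1* and *Nkx2-4*, whose reads stood out in the same library, differed at 18, and the Nkx6 genes at 37. Over the 5 Nkx2 genes the homeobox identity ran from 73.3% (*Nkx2-3* with *Nkx2-9*) to 90.0% (*Nkx2-1* with *Nkx2-4*), and *Nkx2-9* shared 82.8% of the bases with *Nkx2-2*. *Nkx6-1* and *Nkx6-2* shared 79.4%, and an Nkx2 gene shared between 51.1% and 56.7% with an Nkx6 gene. The longest run of identical bases in the transcripts of any 2 members was 42 bases (*Nkx2-1* with *Nkx2-9*). Cut into stretches of 31 bases, at most 1.36% of a member's stretches (*Nkx2-4*) also occurred in another member. More of a member was shared with genes on the other strand of the same locus. In *Nkx6-2*, 218 of 1877 stretches (11.6%) lay in transcripts of *Inpp5a*, an inositol phosphatase gene with a mean normalized count of 85.7, and in *Nkx2-2*, 250 of 2872 (8.70%) lay in the antisense *Nkx2-2os*, which had 5 reads in all. Whether reads were counted by strand is not given in the sources used here, and without strand the *Nkx6-2* reads of the shared stretch cannot be told apart from those of *Inpp5a*.

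Of the 7 genes, 4 form 2 tandem pairs. On chromosome 12 (GRCm38), *Nkx2-1* (chr12:56531958-56536908, minus strand) lies 74.5 kb from *Nkx2-9* (chr12:56611389-56613284, minus strand). On chromosome 2, *Nkx2-4* (chr2:147083316-147085445, minus strand) lies 92.1 kb from *Nkx2-2* (chr2:147177546-147194243, minus strand). *Nkx6-1* (chr5:101658139-101664996, minus strand), *Nkx6-2* (chr7:139579376-139582797, minus strand) and *Nkx2-3* (chr19:43612325-43615892, plus strand) stand alone. All 7 are annotated as protein-coding, and the homeobox is exonic, within exon 2 of *Nkx2-2*, *Nkx2-3*, *Nkx2-4* and *Nkx2-9*, within exon 3 of *Nkx2-1* and across exons 2 and 3 of both Nkx6 genes.

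The libraries held between 1692963 (wild-type column 7) and 5942192 (wild-type column 8) reads on genes, with a median of 4921748. The deposited values are read counts divided by 1 size factor per library, and every value above 0 was a whole multiple of the library's smallest step, so reads could be recovered: 1 read was worth 0.702 normalized counts in column 8 and 2.59 in column 7. Beside the normalized counts, reads are therefore given. All 8 midbrain markers (*En1*, *En2*, *Otx2*, *Pax7*, *Th*, *Pitx3*, *Nr4a2* and *Barhl1*) were read in every library. Of the forebrain and hypothalamus markers, *Six6* and *Rax* were at 0 in all 9 libraries, whereas *Emx2* and *Six3* were read in each. *Xist*, the RNA of the inactive X chromosome, ranged from 4607 to 5182 normalized counts in the knock-out libraries, up to 2929 in het, where 2 of 3 libraries were far lower, and from 47.1 to 4342 in wild type. The summed counts of 4 Y-linked genes were at most 2.26 in the knock-out libraries and reached 1058 in het and 1075 in wild type. High *Xist* with Y-linked genes near 0 was thus seen in all 3 knock-out libraries but also in het column 6 and wild-type column 7, so that the sex of the pooled embryos and the knock-out label were confounded in part. With log2 *Xist* as a covariate the knock-out to wild-type log2 fold changes were -0.04 for *Nkx2-2*, -0.28 for *Nkx6-1*, 0.19 for *Nkx6-2* and 1.49 for *Nkx2-9*, each with the sign it had without the covariate.

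The targeted gene had no fewer reads in the libraries labelled knock-out than in those labelled wild type. *Nkx2-9* had 4, 6 and 3 reads in the knock-out libraries (columns 1 to 3), 0, 7 and 4 in het (columns 4 to 6) and 0, 2 and 2 in wild type (columns 7 to 9). In normalized counts these were 3.01, 5.49 and 2.58 for knock-out, 0, 5.98 and 3.26 for het and 0, 1.40 and 1.47 for wild type. All 3 libraries labelled knock-out thus lay above all 3 labelled wild type, and the het libraries overlapped both. Summed over the genotype, 13 reads in knock-out were 0.863 per 1000000 reads on genes (95% exact Poisson interval 0.459 to 1.48), 11 reads in het were 0.863 (0.431 to 1.55), and 4 reads in wild type were 0.298 (0.0811 to 0.762). The rate in knock-out was 2.899 times that in wild type with an exact interval, for counting error only, of 0.896 to 12.2, and the exact permutation test over libraries gave p = 0.1 (two-sided), the smallest p that 3 against 3 libraries allow. Values without overlap occurred in 7.53% of the 31636 genes with a read in this comparison.

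The sources used here do not say whether exon 2 is still transcribed from this allele. A count of the whole gene is therefore no sure check of it. Of the 1264 exonic bases of *Nkx2-9*, exon 1 (chr12:56612912-56613284), where LacZ was inserted, holds 373, of which 148 are coding (11.7% of the exonic bases) and 225 belong to the 5′ UTR, which the allele keeps. Exon 2 (chr12:56611389-56612279), with the homeobox, holds 891 (70.5%). The table does not divide the reads between the exons, and values for LacZ were not analysed here. As the count of the targeted gene can neither bear out the labels nor settle whether the knock-out and wild-type headings are the right way round, all directions below refer to the libraries labelled knock-out, het and wild type.

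**Figure D1:**
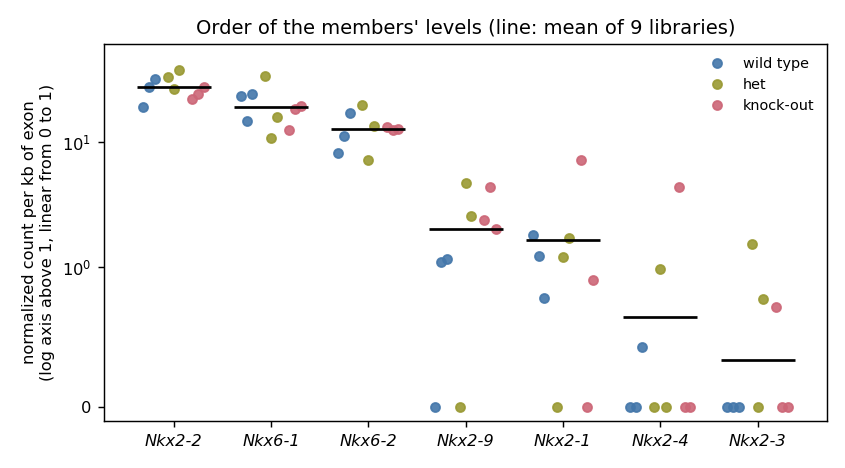
Normalized count per kilobase of exon (y axis, logarithmic above 1 and linear from 0 to 1) for the 7 genes (x axis), 1 point per library coloured by labelled genotype, with a line at the mean of 9 libraries. *Nkx2-2*, *Nkx6-1* and *Nkx6-2* stand above the other 4 genes, which have libraries at 0.

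Per kilobase of exon, the genes fell into 2 classes. *Nkx2-2* had the highest level, at 27.5 ± 5.70 normalized counts per kb (SD, n = 9 libraries), followed by *Nkx6-1* at 19.0 ± 6.96 and *Nkx6-2* at 12.7 ± 3.90. *Nkx2-9* followed at 2.04 ± 1.69, *Nkx2-1* at 1.65 ± 2.16, *Nkx2-4* at 0.642 ± 1.44 and *Nkx2-3* at 0.337 ± 0.555. Knock-out column 1 gave the highest values of *Nkx2-1* (7.15) and *Nkx2-4* (4.36), and the order without it was not tested. The step from *Nkx6-2* to *Nkx2-9*, 6.23-fold in the means, was the only one at which the ranges of the 9 libraries did not overlap. Within the upper class *Nkx2-2* was above *Nkx6-1* in 7 of 9 libraries and *Nkx6-1* above *Nkx6-2* in 8 of 9, by 8.52 ± 7.81 and 6.29 ± 5.08 normalized counts per kb (SD, n = 9). Within the lower class neighbours did not differ beyond their spread, with the exception of *Nkx2-1* over *Nkx2-4*, where the mean difference of 1.00 just exceeded its SD of 0.968. Among the 16951 genes over the minimum with a known length, 58.3% lay below *Nkx2-2*, 48.1% below *Nkx6-1* and 37.97% below *Nkx6-2*, and among all 31539 genes with a read and a known length these shares were 77.2%, 71.3% and 65.1%. In a dissected tissue, fewer cells of a type and less RNA per cell cannot be told apart.

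*Nkx2-2*, the closest relative of the targeted gene with a measurable level, did not differ between the genotypes beyond the spread of the libraries. Its normalized counts were 63.2, 68.6 and 79.0 in the knock-out libraries, 94.5, 76.0 and 107 in het and 54.3, 77.9 and 91.3 in wild type. The corresponding reads were 84, 75 and 92 in knock-out, 58, 89 and 131 in het and 21, 111 and 124 in wild type. The 3 knock-out values lay inside the wild-type range, and the het values reached above it in columns 4 and 6. The lowest value of all, column 7, came from the shallowest library. The means were 70.3 ± 8.03 in knock-out, 92.5 ± 15.5 in het and 74.5 ± 18.7 in wild type (SD, n = 3 each).

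The log2 fold change of *Nkx2-2* between knock-out and wild type was -0.06 ± 0.22 (SE), with an adjusted p of 0.99999 from limma (unadjusted 0.80). On the scale of the fit, log2(normalized count + 1), its 95% interval allowed a knock-out to wild-type ratio between 0.695 and 1.33. The sign depended on single libraries, since leaving out column 1 gave 0.02 and leaving out column 9 gave 0.10. Het libraries had a log2 fold change of 0.33 ± 0.22 over wild type (unadjusted limma p = 0.159, adjusted 0.999977, exact permutation p = 0.3), and knock-out libraries one of -0.38 ± 0.22 against het (unadjusted 0.102, adjusted 0.999106). The exact permutation p was 0.8 for knock-out against wild type and 0.2 for knock-out against het. Without column 7 the het to wild-type value was 0.12, and without column 9 it was 0.49.

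**Figure D2:**
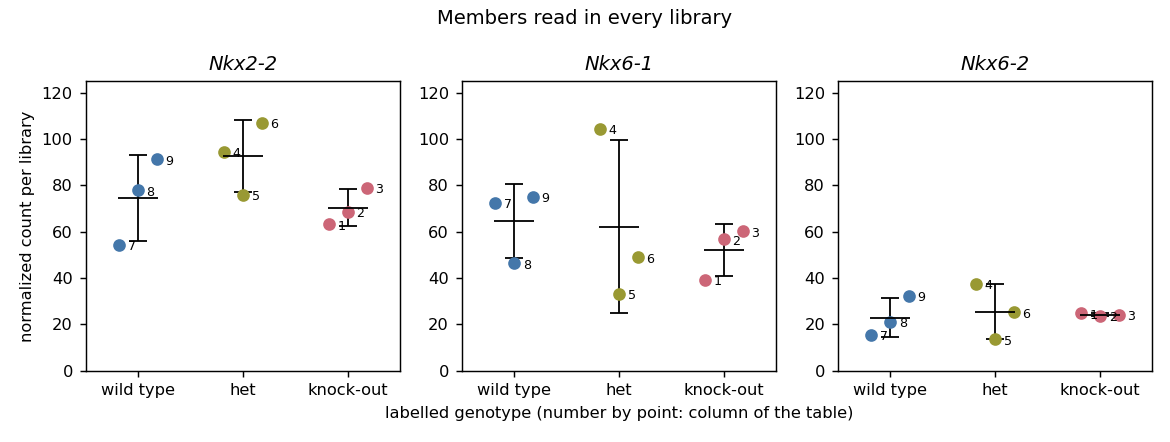
Normalized count (y axis) of *Nkx2-2*, *Nkx6-1* and *Nkx6-2* in each library by labelled genotype (x axis), with the column number beside the point and a bar at the mean ± SD of 3 libraries. The genotypes overlap for all 3 genes, het column 4 is the highest value of both Nkx6 genes, and the 3 knock-out values of *Nkx6-2* lie between 23.8 and 24.8.

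*Nkx6-1*, which is needed for ventral motor and other neurons, was measured at 39.1, 56.7 and 60.1 normalized counts in knock-out, 104, 33.3 and 48.95 in het and 72.4, 46.3 and 75.1 in wild type. These were 52, 62 and 70 reads in knock-out, 64, 39 and 60 in het and 28, 66 and 102 in wild type. The groups overlapped, and the het group held both the highest value (column 4) and the lowest (column 5). The log2 fold change was -0.30 ± 0.34 between knock-out and wild type (unadjusted limma p = 0.393, adjusted 0.99999, exact permutation p = 0.3), with an interval of the ratio from 0.491 to 1.34. Leaving out single libraries moved the log2 value from -0.52 (without column 8) to -0.11 (without column 1). Het minus wild type was -0.18 ± 0.34 (unadjusted 0.599) and knock-out minus het -0.12 ± 0.34 (unadjusted 0.737). The het values turned on single libraries: without column 4 the het to wild-type value was -0.63 with an unadjusted p of 0.0399, and without column 5 it was 0.18. Leaving out column 4 turned knock-out minus het to 0.33, and leaving out column 1 to 0.07.

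*Nkx6-2*, the relative of *Nkx6-1* that is also expressed in oligodendrocytes, had 24.8, 23.8 and 24.0 normalized counts in knock-out, 37.5, 13.7 and 25.3 in het and 15.5, 21.1 and 32.4 in wild type. The reads were 33, 26 and 28 in knock-out, 23, 16 and 31 in het and 6, 30 and 44 in wild type. All 3 knock-out values lay close together and inside the range of both other groups. The log2 fold changes were 0.13 ± 0.38 for knock-out minus wild type, 0.10 ± 0.38 for het minus wild type and 0.04 ± 0.38 for knock-out minus het, with unadjusted limma p-values of 0.729, 0.804 and 0.922. Signs of this size were not stable. The first became -0.11 when column 7 was left out, the second -0.23 without column 4 or -0.14 without column 7, and the third -0.33 without column 5. On the recovered reads the first 2 were just below 0 in edgeR and the third was -0.03 in DESeq2.

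**Figure D3:**
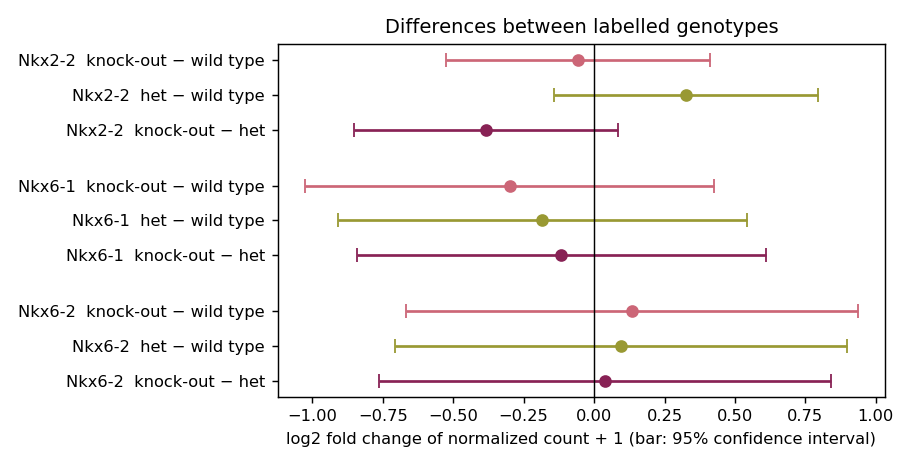
Log2 fold change of normalized count + 1 (x axis) with its 95% confidence interval from limma, for the 3 genes over the minimum and the 3 comparisons of labelled genotypes (y axis). All 9 intervals include 0.

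At an adjusted p under 0.05 the 3 comparisons called 0 genes, 0% in each, of 16993 tested by limma, 15946 by edgeR and 31631 by DESeq2. At an unadjusted p under 0.05 limma counted 441 genes (2.6%) for knock-out minus wild type, 473 (2.78%) for het minus wild type and 449 (2.64%) for knock-out minus het. Of their own numbers tested, edgeR counted 374, 344 and 414 and DESeq2 368, 322 and 409. Of the 3 members over the minimum, 0 were among them in any comparison, and their median log2 fold changes were -0.06, 0.10 and -0.12, beside 0.01, -0.01 and 0.02 over all genes tested. Values without overlap between the groups occurred in 9.52%, 6.91% and 8.71% of the genes tested and in 0 of these 3 members. The spread within a genotype was wider than counting alone gives: the variance of the reads around each genotype's own share of the library totals was 2.23 times the counting variance for *Nkx2-2*, 9.03 times for *Nkx6-1* and 2.53 times for *Nkx6-2*.

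**Figure D4:**
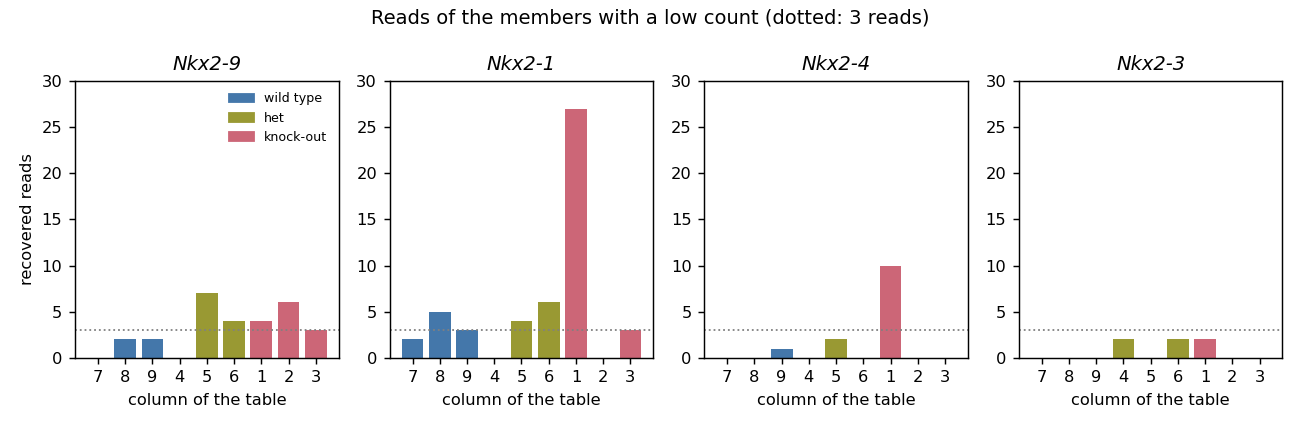
Recovered reads (y axis) of the 4 genes under the minimum in each library (x axis, columns of the table grouped as wild type, het and knock-out), with a dotted line at 3 reads. *Nkx2-1* with 27 reads and *Nkx2-4* with 10 both peak in knock-out column 1, and the other bars reach at most 7.

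The remaining relatives were at the edge of detection, and their reads were concentrated. *Nkx2-1* had 27, 0 and 3 reads in knock-out, 0, 4 and 6 in het and 2, 5 and 3 in wild type. Knock-out column 1 alone gave 27 of its 50 reads, or 20.3 normalized counts against at most 5.17 in the other 8 libraries. The noncoding transcript *Sfta3-ps* (chr12:56488321-56529427, minus strand), which lies beside *Nkx2-1*, had the same peak, with 27, 0 and 0 reads in knock-out, 0, 10 and 4 in het and 3, 4 and 0 in wild type. The nearest protein-coding genes did not peak there, since column 1 held 107 reads of *Mbip*, which had up to 144 in other libraries, and 4 of *Nkx2-9*, which had up to 7. The exact permutation p for *Nkx2-1* was 0.9 for knock-out against wild type, 0.6 for het against wild type and 0.9 for knock-out against het.

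*Nkx2-4*, which is close to *Nkx2-1* in sequence and is expressed with it in the hypothalamus, had 10, 0 and 0 reads in knock-out, 0, 2 and 0 in het and 0, 0 and 1 in wild type. Knock-out column 1 held 10 of its 13 reads. *Nkx2-1* and *Nkx2-4* were thus both highest in the same library, although they lie on different chromosomes. Only 12 of 2749 stretches of 31 bases in *Nkx2-1* occurred in *Nkx2-4* or *Nkx2-9*, and 23 of 1695 in *Nkx2-4* occurred in *Nkx2-1*, *Nkx2-2* or *Nkx2-9*. The exact permutation p for *Nkx2-4* was 1 in each comparison. *Nkx2-3* had 2, 0 and 0 reads in knock-out, 2, 0 and 2 in het and 0, 0 and 0 in wild type. Its 0 reads in wild type, of 13443212 on genes, allow a rate of up to 0.223 per 1000000 (3 reads, counting error only). All 9 libraries lay at or under 3 reads, so no fold is given, and its unadjusted limma p of 0.0458 for het minus wild type stands among the 3.59% of genes under 0.05 in the fit without a minimum.

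In the same fit without a minimum, the log2 fold change of *Nkx2-9* was 1.32 ± 0.78 for knock-out minus wild type (unadjusted limma p = 0.105, exact permutation p = 0.1), 0.77 ± 0.78 for het minus wild type (0.332) and 0.55 ± 0.78 for knock-out minus het (0.490). The first ranged from 0.89 (without column 7) to 1.55 (without column 9) and the second from 0.19 (without column 5) to 1.59 (without column 4), and the last turned to -0.27 without column 4. Counting *Nkx2-9*, 1 of the 7 members had values without overlap between knock-out and wild type, and 0 of 7 had them in the other comparisons, where the background over genes with a read was 5.65% (het minus wild type) and 7.02% (knock-out minus het).

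The 3 genes over the minimum did not vary together in a way that passed a test. Over the 9 libraries the Pearson r of log2(normalized count + 1) was 0.619 between *Nkx6-1* and *Nkx6-2* (Spearman rho 0.567), with exact permutation p = 0.0739 and 0.121 and adjusted values over 3 pairs of 0.138 and 0.181. Without the 2 libraries farthest from the median of *Nkx6-1* (columns 4 and 5) r was -0.06. Leaving out the extremes narrows the range and tends to lower r, so this cannot show what the relation rested on. Without column 7, the shallowest, r was 0.878. *Nkx2-2* had an r of 0.590 with *Nkx6-2* (rho 0.683, exact permutation p = 0.0921 and 0.0503, adjusted 0.138 and 0.151) and of 0.201 with *Nkx6-1* (rho 0.333, exact permutation p = 0.606 and 0.385, unaltered by adjustment). Without columns 6 and 7 these were 0.517 and 0.759. As deviations from the genotype means, r was 0.685 for the Nkx6 pair, 0.732 for *Nkx2-2* with *Nkx6-2* and 0.258 for *Nkx2-2* with *Nkx6-1*. The ratio of *Nkx6-1* to *Nkx6-2* in normalized counts lay between 1.58 and 2.78 in 8 libraries and was 4.67 in column 7, where it rested on 28 and 6 reads.

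The genes with the highest r to each member are given as a description. Among 12490 genes with a mean of at least 20, the 3 closest to *Nkx2-2* by Pearson r over 9 libraries were *Ets2* (0.919), *Mrnip* (0.909) and *Gna11* (0.909). Those closest to *Nkx6-1* were *Sec24b* (0.969), *Eif3h* (0.961) and *Haghl* (0.959), and those closest to *Nkx6-2* were *Ybx2* (0.947), *Gm28438* (0.941) and *Smpd2* (0.941). By the same measure *Nkx6-2* ranked 1383 for *Nkx6-1*, and *Nkx6-1* ranked 634 for *Nkx6-2*. *Nkx6-2* ranked 611 for *Nkx2-2* and *Nkx2-2* 767 for *Nkx6-2*, while *Nkx6-1* ranked 3603 for *Nkx2-2* and *Nkx2-2* 4665 for *Nkx6-1*. These values share the same 9 libraries and their depths, and describe them only. The 3 genes per member were picked as the highest among 12490 over 9 libraries, so their r is high by selection. They are no yardstick for the pairs of members.

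Of 6 other NK homeobox genes, 3 (*Nkx2-5*, *Nkx2-6* and *Nkx3-2*) were at 0 in all libraries and 2 had few reads (*Nkx1-1* 3 and *Nkx6-3* 2 in all). *Nkx1-2*, an early neural and tail bud gene, was the only one over the minimum. It had 13.5, 14.6 and 12.9 normalized counts in knock-out, 6.52, 10.2 and 15.5 in het and 7.76, 12.6 and 7.36 in wild type. Its knock-out values lay above all wild-type values, with a log2 fold change of 0.55 ± 0.45 (unadjusted limma p = 0.232, adjusted 0.99999, exact permutation p = 0.1). In this comparison 9.52% of all genes tested had values without overlap.

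The hedgehog pathway acts upstream of *Nkx2-2*, *Nkx2-9*, *Nkx6-1* and *Nkx6-2*. All 12 genes of the list, from the ligand *Shh* and its release factor *Disp1* through the receptors and co-receptors (*Ptch1*, *Smo*, *Hhip*, *Boc*, *Cdon*, *Gas1*) to *Sufu* and the Gli factors, passed the minimum. In each of the 3 comparisons 0 of 12 rose and 0 fell at an adjusted p under 0.05, and 0 had an unadjusted limma p under 0.05. Their median log2 fold changes were -0.02 for knock-out minus wild type, -0.04 for het minus wild type and -0.02 for knock-out minus het. In the first comparison the values ran from -0.49 (*Gli1*, a transcriptional target and effector of the pathway) to 0.22 (*Gas1*, a co-receptor). Groups did not overlap for *Cdon*, a co-receptor with 136 normalized counts in knock-out against 119 in wild type, nor for *Gli3*, the main repressor, with 128 in het against 153 in wild type, and both were named after their values were seen. These were 1 of 12 genes in each comparison, beside 9.52% and 6.91% of all genes tested.

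**Figure D5:**
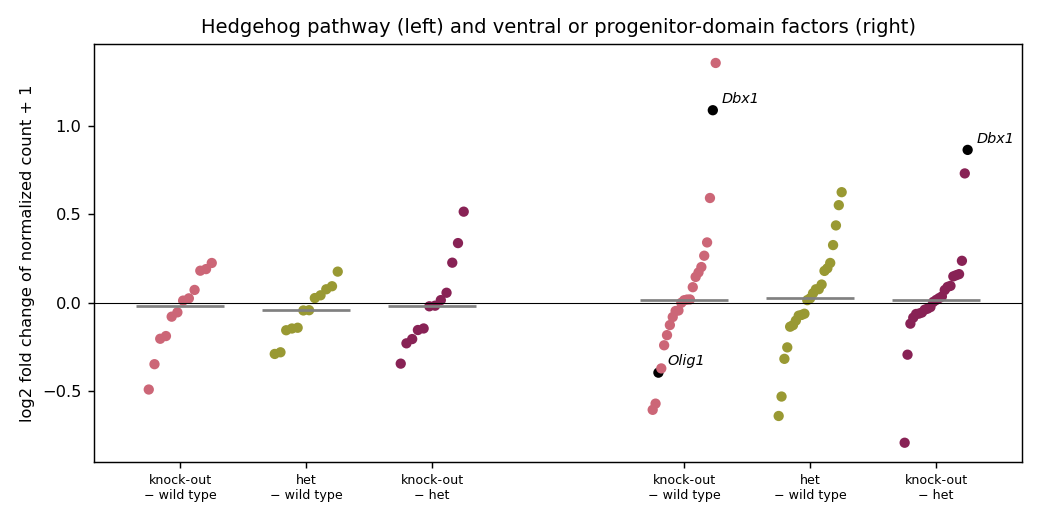
Log2 fold change of normalized count + 1 (y axis) of the 12 hedgehog pathway genes (left) and the 23 ventral or progenitor-domain factors over the minimum (right) in the 3 comparisons (x axis), 1 point per gene in rising order, with a grey line at the median. Black points had an unadjusted limma p under 0.05, which are *Dbx1* in 2 comparisons and *Olig1* in 1.

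Of 24 transcription factors of ventral and neighbouring progenitor domains, 23 passed the minimum, and 0 passed the test after adjustment. At an unadjusted limma p under 0.05, 1 was higher and 1 lower in knock-out than in wild type, beside backgrounds of 1.38% higher and 1.22% lower. *Dbx1*, a homeobox factor of progenitors next to the ventral domains, was the higher one. It had 42.9, 25.6 and 24.0 normalized counts in the knock-out libraries, 24.4, 11.1 and 14.7 in het and 15.5, 13.3 and 11.8 in wild type. All knock-out values lay above all wild-type values, and column 1 was the highest. The log2 fold change was 1.09 ± 0.38 over wild type (unadjusted limma p = 0.0105, adjusted 0.99999, exact permutation p = 0.1). Over het it was 0.87 ± 0.38 (unadjusted limma p = 0.0350, adjusted 0.999106, exact permutation p = 0.2), beside backgrounds of 1.49% higher and 1.15% lower. There the values overlapped, with 24.4 in het column 4 against 24.0 in knock-out column 3. *Olig1*, a factor of the oligodendrocyte lineage, was the lower one, with 104, 78.7 and 97.9 in knock-out, 140, 109 and 97.1 in het and 124, 128 and 116 in wild type, a log2 fold change of -0.40 ± 0.18 (unadjusted limma p = 0.0453, adjusted 0.99999, exact permutation p = 0.1). For het minus wild type 0 of 23 had an unadjusted p under 0.05. Medians over the list were 0.01, 0.02 and 0.01. Of the 23, 1 had knock-out values above all wild-type values (*Dbx1*) and 2 below (*Olig1* and *Irx5*), beside 9.52% of all genes tested. *Irx5* had a mean of 112 normalized counts in knock-out against 146 in wild type. For knock-out against het, 1 of 23 (*Dbx2*) was lower without overlap, and for het against wild type 0 were, beside 8.71% and 6.91%. *Irx5* and *Dbx2* were named after their values were seen.

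Some markers of the region and of neighbouring cell types differed with the knock-out label at the unadjusted level only, and their part in the values above was not tested. The summed midbrain markers ranged from 1487 to 1656 normalized counts in knock-out, from 1491 to 2246 in het and from 1808 to 1886 in wild type. *Pax7*, *En1* and *Pitx3*, 3 of 8, had an unadjusted limma p under 0.05, all lower in the libraries labelled knock-out (log2 fold changes -0.63, -0.60 and -0.71) beside a background of 1.22% lower, and 0 of 8 passed adjustment. Since the headings could not be settled, these directions are those of the labels. The 5 serotonergic and rostral hindbrain markers summed to between 83.5 and 89.6 in knock-out, 76.7 and 136 in het and 101 and 207 in wild type. *Tph2*, the enzyme of serotonin synthesis, did not overlap between these groups, at 10.5, 9.15 and 3.44 in the libraries labelled knock-out against 31.03, 16.8 and 33.9 in those labelled wild type (log2 fold change -1.75 ± 0.46, unadjusted limma p = 0.00155, adjusted 0.99999, exact permutation p = 0.1). *Slc17a8* and *Slc6a4* were also lower at an unadjusted limma p of 0.0305 and 0.0354. That made 3 of 5 lower, beside a background of 1.22%, and 0 of 5 passed adjustment. Against het, *Tph2* was the 1 of 5 lower, beside 1.15%, and did not overlap (log2 fold change -1.01 ± 0.46, unadjusted limma p = 0.0436, adjusted 0.999106, exact permutation p = 0.1). The oligodendrocyte lineage markers summed to between 312 and 384 in knock-out, 342 and 416 in het and 384 and 422 in wild type, with *Olig1* as the 1 of 6 under 0.05. The forebrain and hypothalamus markers overlapped between the genotypes (199 to 287 in knock-out, 190 to 303 in het, 255 to 344 in wild type), with 0 of 4 tested under 0.05 for knock-out and *Otp* alone for het minus wild type (log2 fold change -1.83, unadjusted limma p = 0.0489, exact permutation p = 0.4). Blood markers overlapped as well (988 to 1063, 875 to 1198 and 769 to 1115), with 0 of 4 tested under 0.05.

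Of the 20 other annotated genes within 500 kb of *Nkx2-9*, 12 had a read (*Nkx2-1* among them) and *Mbip* alone passed the minimum, with log2 fold changes of -0.05 for knock-out minus wild type, -0.16 for het minus wild type and 0.11 for knock-out minus het, of which 0 had an unadjusted p under 0.05. In the fit without a minimum 3 of the 12 were higher at an unadjusted p under 0.05 in knock-out than in wild type and 2 of 12 than in het, beside 3.59% and 3.58% of all genes with a read in both directions, and 0 of 12 differed so between het and wild type. All 3 are named after their values were seen, and none passed adjustment. Among the 12, *Gm47720*, *C87198*, *Gm48835* and *Gm5184* had reads in knock-out libraries alone, so they could only come out higher there. The counts of higher genes were therefore not free to go either way.

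The clearest was *Gm38103*, an unspliced transcript model (chr12:56609613-56610476) on the strand of *Nkx2-9*, 913 bases beyond its 3′ end. It had 7, 10 and 4 reads in knock-out, 0, 0 and 0 in het and 0, 0 and 3 in wild type. In normalized counts these were 5.27, 9.15 and 3.44 in knock-out against 2.21 in wild-type column 9 and 0 in the other 5 libraries. All 3 knock-out libraries thus lay above the other 6. Values without overlap, in either direction, occurred in 7.53% of genes with a read against wild type and in 7.02% against het. The log2 fold change over wild type was 2.15 ± 0.64 (unadjusted limma p = 0.00298, adjusted 0.963, exact permutation p = 0.1). It ranged from 1.84 (without column 2) to 2.71 (without column 9) with each library left out, and was 2.48 with *Xist* as a covariate. DESeq2 gave 2.70 with an unadjusted p of 0.0791. Against het, where all libraries were at 0, the unadjusted limma p was 0.000364 (adjusted 0.963, exact permutation p = 0.1). *Gm47720* and *Gm26973* had 5 and 8 reads in all and overlapped between the genotypes (unadjusted limma p = 0.0322 and 0.0491 for knock-out minus wild type, exact permutation p = 0.4 for both).

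*Pax9*, the nearest protein-coding gene on the far side, had 4 reads in all. On chromosome 2, *Pax1*, next to *Nkx2-2*, had 2 reads, and *Xrn2*, 5.32 kb from *Nkx2-4*, had between 162 and 685 reads per library. *Got1* and *Slc25a28* flank *Nkx2-3* and had 1783 and 552 reads, *Gpat3* and *Cds1* flank *Nkx6-1* with 11 and 407, and *Pwwp2b* and *Cfap46* flank *Nkx6-2* with 197 and 215.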

How the data were processed

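Per the labels and the study's methods, RNA of E14.5 midbrain was sequenced in 9 libraries (3 per genotype, each pooling the cDNA of 2 midbrains), aligned with HISAT2 to mm10 (GRCm38), counted with featureCounts and normalized with DESeq2. The labels name a Trizol extraction and an mRNA protocol, whereas the methods name a miRNeasy extraction and removal of ribosomal RNA. The deposited table holds a normalized signal: read counts that the authors divided by 1 size factor per library. All 210686 values above 0 were whole multiples (within 0.001 reads) of the column's smallest step (100% whole), and these steps gave the reads. The authors' 3 tables of comparisons, which hold fold changes and p-values, were not used. Of 51912 gene IDs, 51633 were named from GENCODE M21.

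The test was limma 3.58.1 (R 4.3.3, with trend, two-sided) on log2(value + 1) over all 9 libraries and the 16993 genes with a mean of at least 5, with Benjamini-Hochberg adjustment. Fold changes on this scale understate those of low genes. Genes under the minimum were read from a fit of all 31636 genes with a read. Exact permutation tests compared single genes. Alternatives were other pseudocounts, minimums and scalings, no trend, 2 genotypes only, each library left out, edgeR 4.0.16 and DESeq2 1.42.0 on recovered reads, and, chosen after seeing the data, log2 *Xist* as a covariate and the fits of *Gm38103*. The limma fit was tested on simulated data. Intervals and floors cover counting error only.

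The members and all gene lists were chosen with earlier results of these data known, and some genes of the lists and the homeobox sequences are not reported here. Besides the members, genes were named as nearest or overlapping neighbours, as the 3 genes closest by Pearson r among those with a mean of at least 20, or as up to 3 genes per list and direction with the smallest unadjusted p under 0.05. Homeobox bases were located from the codons of the conserved Trp-Phe-Gln-Asn of the homeodomain. The labels do not say whether pools shared litters, so p-values measure the spread between these libraries, which may be partly technical.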

Additional observations from a re-analysis of the deposited data

How the results depend on the processing

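No paired analysis was possible because the columns of the table carry genotypes but not the replicate numbers of the labels. For the 4 members fitted (*Nkx2-2*, *Nkx6-1*, *Nkx6-2* and *Nkx2-9*, 12 comparisons), 205 of 219 values under the alternatives kept their direction and their side of the threshold, 13 turned their sign and 1 passed an unadjusted p of 0.05, and the smallest adjusted p of the 3 genes over the minimum was 0.844. The cause of these turns was not tested. Some alternatives could not turn a sign, because they leave the fold change itself unchanged. These were other minimums, no trend, 2 genotypes only, and leaving out a library of the genotype not compared. The share of 205 of 219 therefore overstates how stable the signs were. edgeR gave *Nkx6-2* -0.0036 for knock-out minus wild type and -0.0060 for het minus wild type, and DESeq2 gave it -0.026 for knock-out minus het. With each library left out in turn, *Nkx2-2* ranged from -0.27 to 0.10 for knock-out minus wild type, *Nkx6-2* from -0.11 to 0.40, from -0.23 to 0.47 (het minus wild type) and from -0.33 to 0.36 (knock-out minus het), *Nkx6-1* from -0.63 to 0.18 (het minus wild type) and from -0.48 to 0.33 (knock-out minus het), and *Nkx2-9* from -0.27 to 1.13 (knock-out minus het).

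The counts of genes at an unadjusted p under 0.05 moved with the genes tested: for knock-out minus wild type, het minus wild type and knock-out minus het they were 1135, 1137 and 1132 with no minimum and 263, 242 and 288 with a minimum of 20, while het minus wild type had 283 with these 2 genotypes alone and 298 with *Xist* as a covariate, and knock-out minus wild type rose from 441 to 641 and 574 under the same alternatives. Leaving out each library gave 283 (without column 2) to 835 (without column 8), 376 (without column 2) to 936 (without column 4) and 293 (without column 2) to 741 (without column 5). An adjusted p under 0.05 was reached by 0 genes in every fit run. Per kilobase of its longest transcript *Nkx2-2* stood at 37.3 instead of 27.5, with the order of the 7 genes the same. In column 7 a single read was worth 2.59 normalized counts, which limits what low members can show there.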

Other observations

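The high reads of *Nkx2-1* and *Nkx2-4* in knock-out column 1 led to a count, chosen after their values were seen, of genes with at least 10 reads in 1 library and more than 3 times the normalized count of every other library. In column 1 there were 5 such genes, and in the other columns between 0 (column 5) and 9 (column 9). The 5 genes were *Nkx2-1*, *Nkx2-4*, *Fezf2*, *Gabrr2* and *Gm37399*, of which *Nkx2-1* and *Nkx2-4* were the genes that prompted the count. *Fezf2* had 11 reads in column 1 and 2 in the other 8 libraries together, *Gabrr2* 11 and 10, and *Gm37399* 16 and 10. *Sfta3-ps*, beside *Nkx2-1*, had 27 of its 48 reads in column 1 and fell short of the rule. The forebrain and hypothalamus markers summed to 199 normalized counts in column 1 and to between 190 and 344 in the other libraries, a sum made up mostly of *Six3* (100.1 in column 1) and *Emx2* (83.5). *Lhx6*, a marker of the same list with 18 reads in all, was highest in column 1 with 7, whereas *Otp* had 8.28 normalized counts there against up to 69.8 elsewhere and *Emx1* 1.51 against up to 16.3. The source of these reads was not tested.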
